A study of Mus musculus with 6 samples.

Results

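The genes described here encode the proteins of the mitochondrial ribosome in mouse oocytes. They were taken as the protein-coding rows of the deposited count table whose symbol begins with Mrpl or Mrps followed by a digit. The rule found 78 genes among 54532 rows, 49 with an Mrpl symbol (named for the large subunit) and 29 with an Mrps symbol (named for the small subunit). Messenger RNA of oocytes of C57BL/6J mice aged 6 to 7 weeks was sequenced in 6 libraries, 3 labelled control (controls 1 to 3) and 3 labelled as treated with AMH (AMH 1 to 3). AMH, anti-Müllerian hormone, is a growth factor of the TGF-beta family that granulosa cells of growing follicles secrete. Treated mice were given 300 ng of recombinant mouse AMH, made in bacteria, into the abdominal cavity each day from day 21 of age. The labels do not say whether control mice were injected, how many oocytes of which stage made up a library, whether cumulus cells were stripped, or whether each library came from a separate animal. P-values therefore set the difference between groups only against the spread of these libraries within a group, and that spread may be technical.

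Mitochondria translate the few messages of their own genome on a dedicated ribosome, and its products are core subunits of the respiratory chain and of ATP synthase. The ribosomal RNAs of that ribosome come from mitochondrial DNA, while its proteins are encoded in the nucleus, made in the cytosol and imported. Some of these proteins have counterparts in bacterial ribosomes and others were added during the evolution of mitochondria. The oocyte is rich in mitochondria and passes them to the embryo.

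Depth was 66392859 to 72109080 counts per library. Levels are given as CPM, read counts relative to a library size scaled by edgeR's TMM method, and differences as the log2 of AMH over control from edgeR's quasi-likelihood test, with its standard error (SE). A gene passed that test at a Benjamini-Hochberg adjusted p under 0.05 over 18868 genes. Oocyte markers were detected in every library, and all 18 had a log2 fold change under 0: their summed level was 26706 to 34746 CPM in the controls and 15479 to 26011 CPM in the AMH libraries. Of 19 cumulus and granulosa markers 16 had a positive one, and their sum was 291 and 488 CPM in controls 2 and 1, 2829 CPM in control 3 and 2418 to 2718 CPM in the AMH libraries. Control 3 and AMH 3 were the closest pair of the 6 libraries over all genes. Summed blood markers (3 of 3 positive) ran from 0.826 to 5.51 CPM in controls and from 20.1 to 307 CPM in AMH libraries. Oviduct epithelium markers (7 of 7 positive) ran from 19.5 to 108 against 102 to 555 CPM, and immune markers (4 of 5 positive) from 4.74 to 19.4 against 45.9 to 71.1 CPM. Theca and stroma markers (2 of 4 tested positive) ran from 3.85 to 15.2 against 4.10 to 18.9 CPM, and endothelial markers (1 of 3 positive) from 162 to 202 against 98.0 to 157 CPM. No marker was at 0 in all libraries. The part of these other cell types in the results was not tested, and in pooled RNA fewer cells of a type and less RNA per cell cannot be told apart.

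Most mitochondrial ribosomal protein transcripts had higher values in the AMH libraries, and no single gene passed the test. Of the 78 genes 77 passed the filter on low counts, 48 Mrpl and 29 Mrps, and Mrpl53 did not. edgeR called 0 of these 77 genes, beside 0 of all 18868 genes (0%), and the lowest adjusted p was 0.116, which many genes shared. At an unadjusted p under 0.05, 44 of the 77 genes were higher in AMH libraries and 1, Mrpl9, was lower. That is 57.1% and 1.30% of the tested members, where all genes gave 20.2% higher and 17.3% lower. With the cumulus marker sum as a covariate 24 were higher and 0 lower. The share of all genes in that fit is not given here, and the shares above do not apply to it. In 50 genes (64.9%) every AMH library lay above every control, and in 2, Mrpl9 and Mrpl47, every AMH library lay below, against 26.9% and 23.3% of all genes. A positive log2 fold change was found for 61 genes (79.2%), against 49.7% of all genes. A log2 fold change of at least 1 was found for 36 genes (46.8%), against 27.8% of all genes. The median log2 fold change of the members was 0.88 and that of all genes -0.01.

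**Figure D1:**
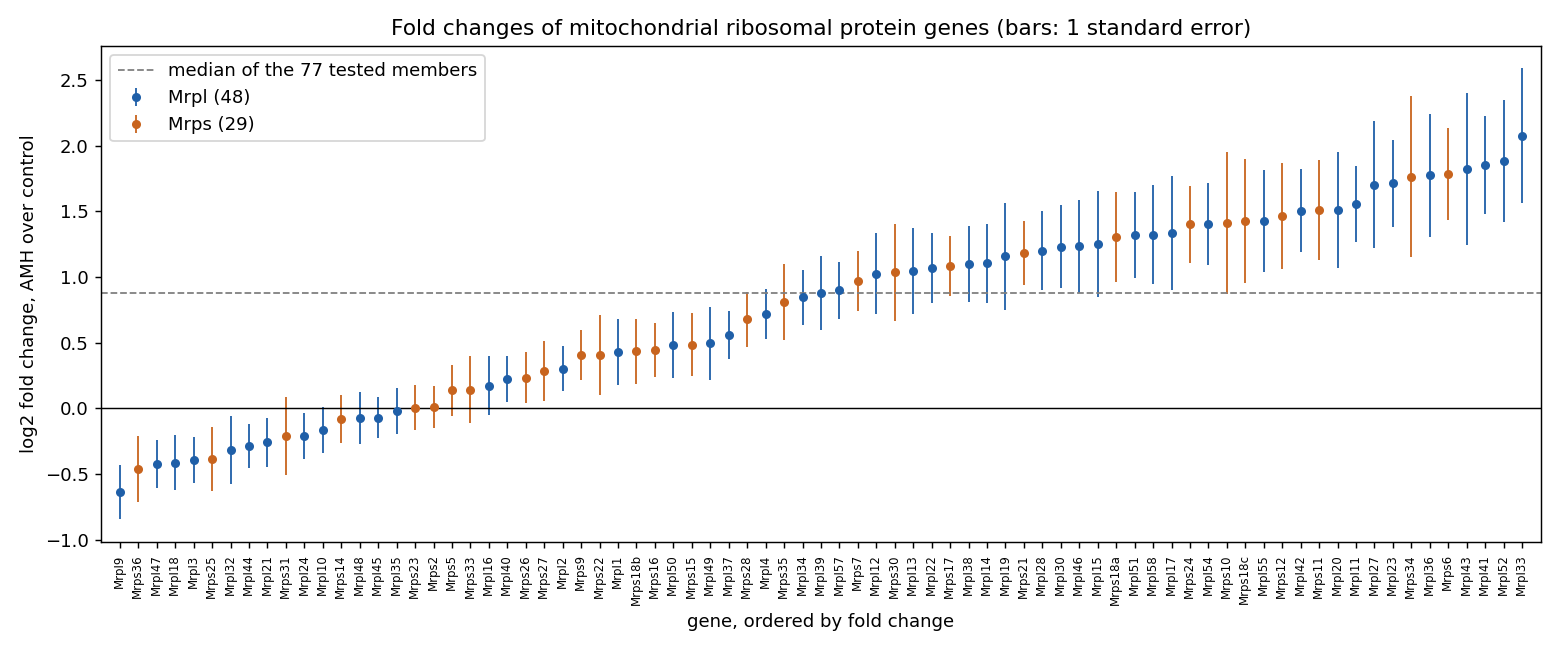
Log2 fold change of AMH over control for each of the 77 tested genes, ordered by size, with the standard error of edgeR's fit as bars. The values run from -0.63 for Mrpl9 to 2.07 for Mrpl33, and 61 points lie above the line at 0.

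The sign of single members moved with the scaling of the libraries, which shifts all genes nearly alike. The members' median was 0.90 with DESeq2's size factors, 0.67 with upper-quartile scaling and 1.16 with library size alone. The median of all genes under those scalings was 0.00, -0.23 and 0.26, so the shift was common to members and other genes and leaves their distance fixed by construction. Scaled to the 18 oocyte markers, all 77 genes had a positive log2 fold change, with a median of 1.64 against 0.74 for all genes. Positive values numbered 55 with upper-quartile scaling, 61 with TMM and 69 with library size alone. Statements of higher and lower below hold for TMM scaling. A covariate for the log2 of the cumulus marker sum, which is no such shift, gave the members a median of 0.65 against 0.04 for all genes.

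Calls depended on single libraries and on the tool. Without control 3 edgeR called 43 members higher and 2 lower, against 26.8% higher and 11.2% lower among all genes. Without AMH 3 it called 9 higher and 0 lower, against 1.45% and 6.73%. Without both, a setting chosen after seeing the data, it called 44 higher and 5 lower, against 29.4% and 21.6%. DESeq2 on all 6 libraries called 44 higher and 0 lower, against 16.3% and 7.78% of all genes. limma-voom and limma on log2(FPKM + 1) called 0 members, and limma-voom with sample weights called 52 higher and 11 lower, against 39% and 35.7% of all genes.

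The large subunit family had the larger median difference, and the small subunit family the larger relative difference in summed level. The median log2 fold change was 1.04 over 48 Mrpl genes and 0.49 over 29 Mrps genes. Every AMH library lay above every control in 33 Mrpl genes (68.8%) and in 17 Mrps genes (58.6%), against 26.9% of all genes. The share with a positive value had the other order, 36 of 48 Mrpl and 25 of 29 Mrps genes. Summed over genes, Mrpl transcripts had 1130, 1045 and 1069 CPM in controls 1, 2 and 3 and 1469, 1324 and 1274 CPM in AMH 1, 2 and 3. For Mrps the control sums came to 480, 455 and 454 CPM and the AMH sums to 679, 627 and 568 CPM. In both families the sums did not overlap between groups. The mean AMH sum was 1.25 times the mean control sum for Mrpl and 1.35 times for Mrps, the opposite order to the medians. The ratio of the Mrpl to the Mrps sum was 2.33 ± 0.0339 in controls and 2.17 ± 0.0645 in AMH libraries (SD, n = 3 each), without overlap. A test of the difference between the families was not made, since genes are not replicates of a condition. With a covariate for the log2 of the cumulus marker sum the medians were 0.68 for Mrpl and 0.60 for Mrps.

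Symbols do not always give the subunit. Mrps30 and Mrps18a belong to the large subunit, and Mrps36 is a component of the 2-oxoglutarate dehydrogenase complex of the citric acid cycle. Sorted by subunit, 50 tested large subunit genes had a median of 1.04 and 26 small subunit genes one of 0.46. Within Mrps, 18 genes with a bacterial counterpart had a median of 1.03 and 11 without one had 0.24. Within Mrpl the medians were 1.04 over 30 genes with a counterpart and 1.00 over 18 without.

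**Figure D2:**
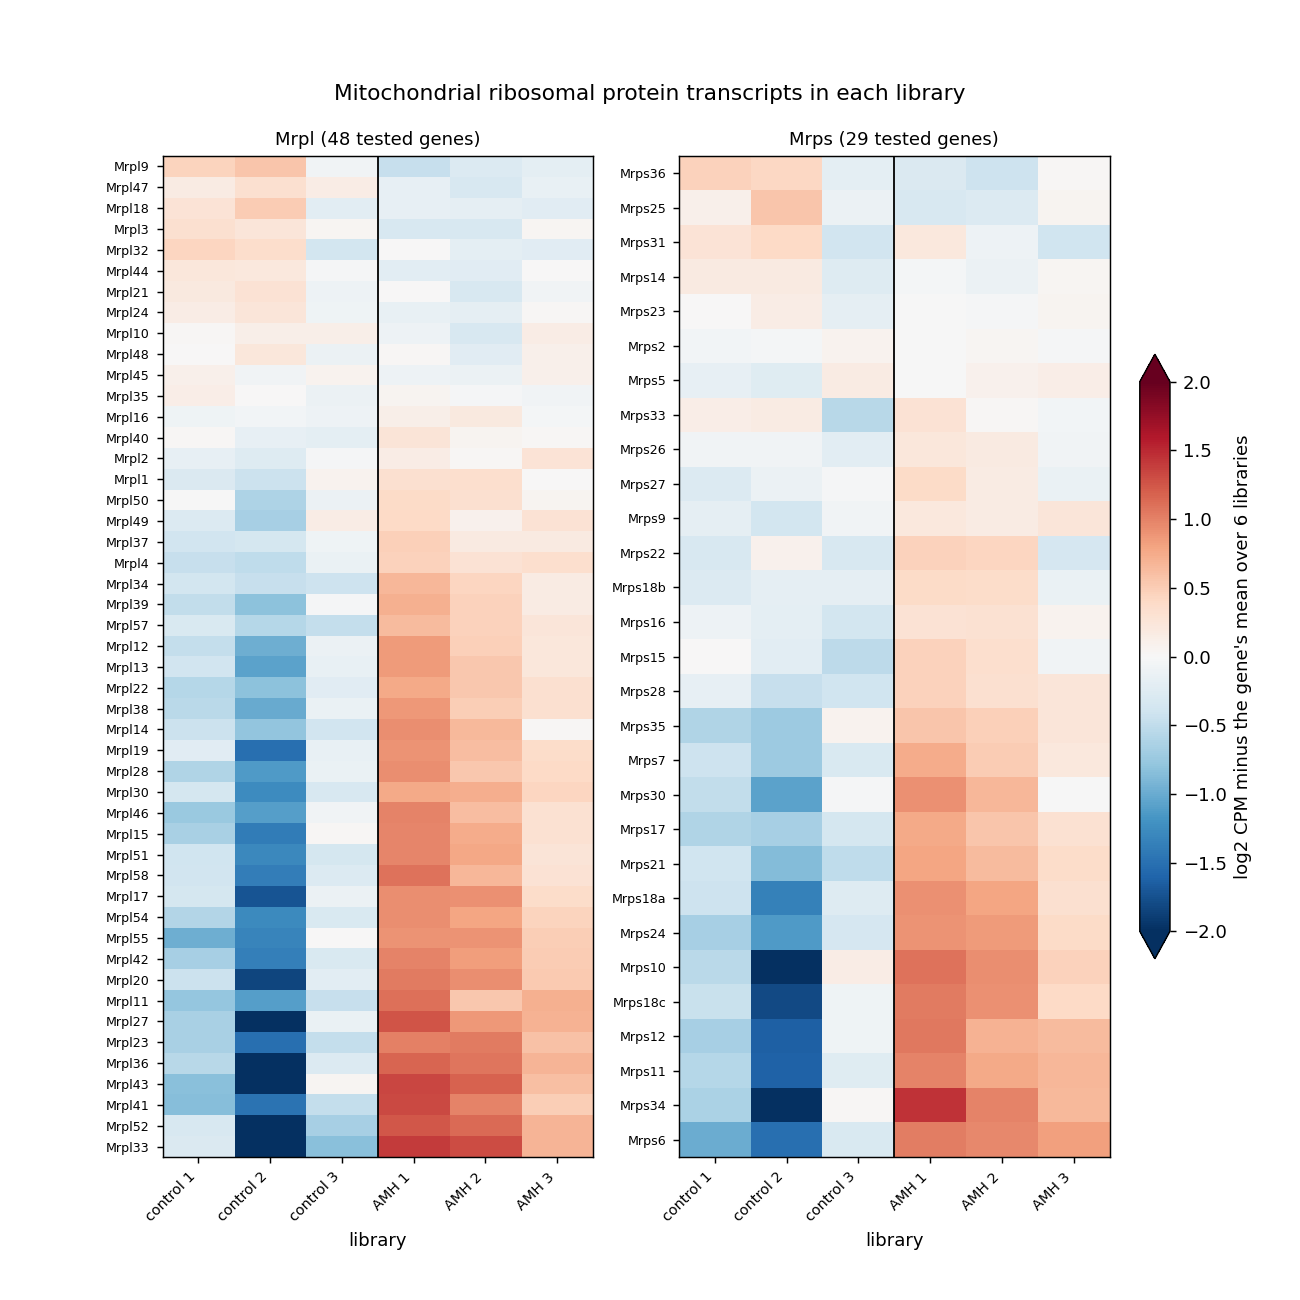
Level of every tested gene in every library, as log2 CPM minus the gene's own mean over the 6 libraries, with Mrpl genes on the left and Mrps genes on the right, ordered by fold change within each. Most rows are above their mean in AMH libraries, AMH 1 has the highest value in 51 of 77 genes and control 2 the lowest in 49.

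Among the proteins of the large subunit, 3 form the stalk that recruits translation factors, and 2 of them had higher values in every AMH library. Mrpl11, the protein at the base of the stalk (GRCm38, 19, 4962306 to 4966995, plus strand), had 4.44, 3.51 and 5.46 CPM in controls 1, 2 and 3 and 16.1, 11.02 and 12.3 CPM in AMH 1, 2 and 3. The groups did not overlap, and the lowest AMH library held more than the highest control. Its mean was 4.47 ± 0.977 against 13.2 ± 2.66 CPM (SD, n = 3 each), a log2 fold change of 1.56 (SE 0.29, adjusted p = 0.116 by edgeR). Mrpl12, the stalk protein that contacts the factors, had 8.31, 5.89 and 10.6 against 20.9, 16.1 and 13.6 CPM, also without overlap (1.03, SE 0.31, adjusted p = 0.116 by edgeR). Mrpl10, which anchors Mrpl12 to the ribosome, had 58.6, 62.5 and 62.1 against 53.2, 46.2 and 63.9 CPM. Its AMH 3 value was above all controls while AMH 1 and 2 were below them, and the log2 fold change was -0.16 (SE 0.18, adjusted p = 0.469 by edgeR), or 0.10 with library size alone.

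Of the proteins around the exit tunnel, through which the new chain leaves, 3 are given here. Mrpl23, a protein at the tunnel's mouth (7, 142532686 to 142540747), had 7.29, 4.05 and 8.22 CPM in controls and 23.2, 23.6 and 17.3 CPM in AMH libraries. The groups were far apart, and the log2 fold change was 1.71 (SE 0.33, adjusted p = 0.116 by edgeR). Mrpl45, which ties the ribosome to the inner membrane where its products are inserted (11, 97315716 to 97329920), had 74.7, 66.4 and 72.7 against 65.0, 64.1 and 74.6 CPM. Those ranges overlapped, and the log2 fold change was -0.07 (SE 0.15, adjusted p = 0.726 by edgeR), or 0.20 with library size alone. Mrpl44, which carries a ribonuclease III fold, had 53.8, 53.5 and 45.5 against 39.8, 39.2 and 46.4 CPM, with AMH 3 just above control 3.

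The further large subunit genes given here were higher in every AMH library. Mrpl41, Mrpl42 and Mrpl54 were named for their small p, Mrpl58 and Mrps30 as set genes whatever their values. In this paragraph edgeR's adjusted p was 0.116 for every gene but Mrps30, where it was 0.118. Mrpl41, which has no bacterial counterpart (2, 24974117 to 24975098), had 2.62, 1.70 and 3.40 against 11.8, 9.45 and 6.62 CPM, a log2 fold change of 1.85 (SE 0.37). Mrpl42, likewise specific to mitochondria, had 11.5, 7.00 and 14.6 against 35.8, 32.3 and 25.7 CPM (1.504, SE 0.32). Mrpl54 had 9.26, 5.78 and 11.3 against 26.6, 24.3 and 18.98 CPM (1.40, SE 0.31). None of these 3 genes overlapped between groups, and in each control 2 was the lowest library and AMH 1 the highest. Mrpl58, a peptidyl-tRNA hydrolase that frees stalled ribosomes and is built into the large subunit, had 7.00, 3.48 and 7.49 against 19.3, 14.5 and 11.2 CPM (1.32, SE 0.38). Mrps30, a mitochondria-specific protein of the large subunit, had 8.25, 5.53 and 11.4 against 21.8, 18.3 and 11.6 CPM (1.04, SE 0.37). For Mrps30 the groups were separated only by the narrow gap between control 3 and AMH 3.

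The small subunit genes given next were also higher in every AMH library, each with an adjusted p of 0.116 by edgeR. Mrps12 was a set gene, and the others had the smallest p of their family. Mrps6 (16, 92058270 to 92112227) had 3.96, 2.74 and 6.34 CPM in controls and 15.96, 15.2 and 13.8 CPM in AMH libraries. Its mean was 4.35 ± 1.83 against 14.99 ± 1.09 CPM (SD, n = 3 each), a log2 fold change of 1.79 (SE 0.35). All AMH libraries of Mrps6 lay close together and far above the controls, and 19.9% of its exonic bases are shared with Gm49711 and Slc5a3. Mrps24, the counterpart of the bacterial protein S3 at the messenger RNA entry, had 7.80, 5.64 and 9.81 against 23.0, 22.4 and 16.1 CPM (1.40, SE 0.29). Mrps21 had 10.6, 7.67 and 9.87 against 24.2, 21.7 and 18.004 CPM (1.18, SE 0.24). Mrps17, an RNA-binding protein of the small subunit, had 10.6, 10.2 and 12.7 against 27.4, 23.9 and 19.96 CPM (1.09, SE 0.23). In these genes AMH 3 was the lowest AMH library and still above all controls. Mrps7, which binds the head of the small subunit's RNA, had 17.9, 14.5 and 19.4 against 39.9, 34.0 and 27.6 CPM (0.97, SE 0.23). Mrps12, a protein of the decoding centre, had 8.64, 4.43 and 12.97 against 28.3, 22.3 and 21.3 CPM (1.47, SE 0.40), without overlap.

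**Figure D3:**
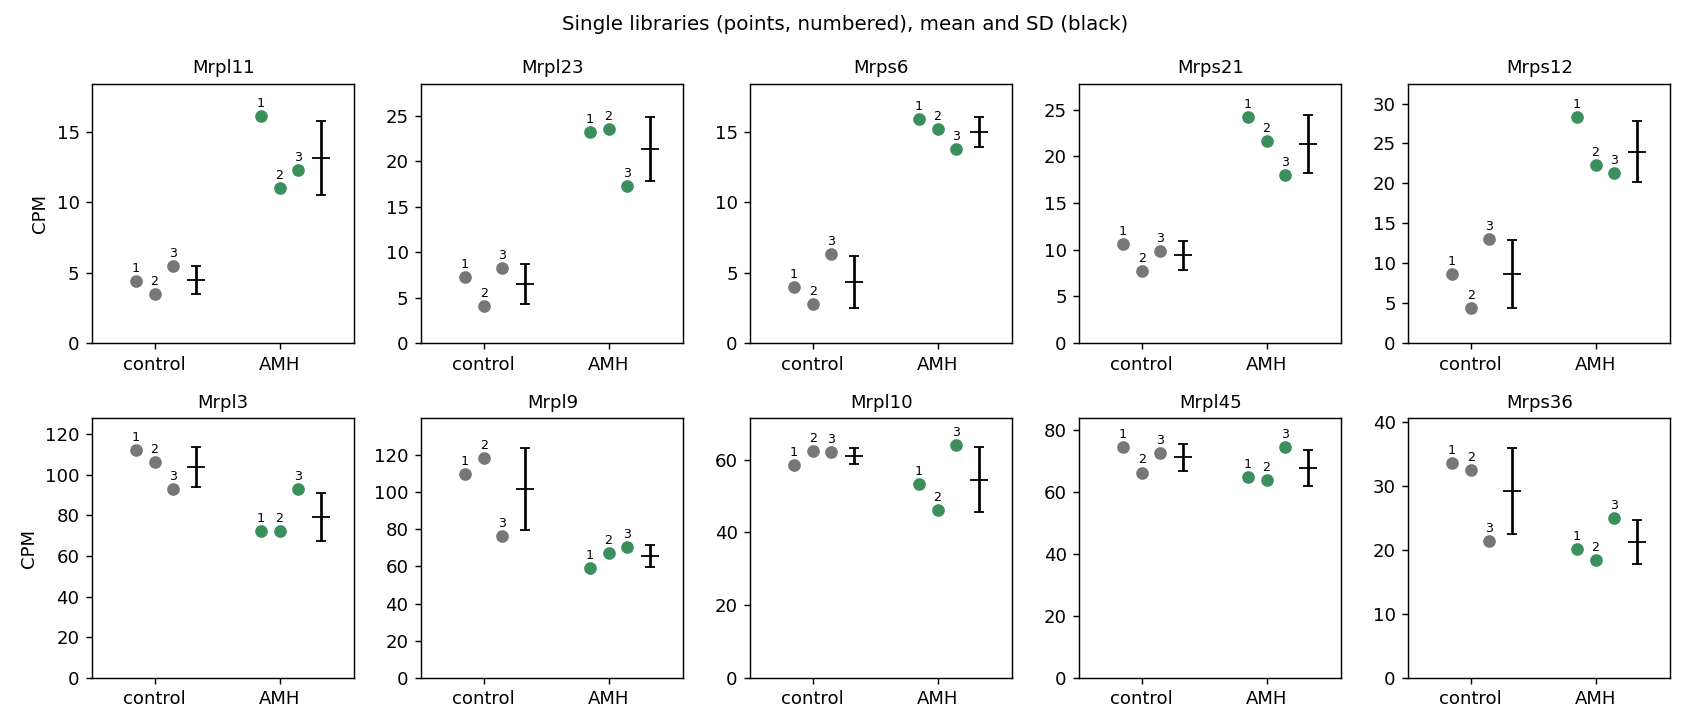
CPM of 10 genes in single libraries (numbered points), with the mean and SD of each group in black; each panel has its own axis from 0. Mrpl11, Mrpl23, Mrps6, Mrps21 and Mrps12 do not overlap between groups, Mrpl9 is lower in every AMH library, and Mrpl3, Mrpl10, Mrpl45 and Mrps36 overlap.

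The Mrps18 paralogs, 3 relatives of the bacterial protein S18, gave different sizes of difference. Mrps18a, found in the large subunit, had 10.9, 5.75 and 12.2 CPM in controls and 27.7, 25.3 and 18.2 CPM in AMH libraries (1.30, SE 0.34). Mrps18c, of the small subunit, had 2.79, 1.09 and 3.58 against 7.81, 7.20 and 5.05 CPM (1.43, SE 0.47). Both had an adjusted p of 0.116 by edgeR. Mrps18b, also of the small subunit, had 7.55, 8.06 and 8.07 against 11.9, 11.8 and 8.28 CPM (0.44, SE 0.25, adjusted p = 0.211 by edgeR). All 3 were without overlap, but Mrps18b was separated only by the small step from control 3 to AMH 3, and 30.5% of its exonic bases are shared with another gene.

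Lower or level values in AMH libraries were found mostly among the genes with many reads. Mrpl9, a large subunit protein with a bacterial counterpart (3, 94443318 to 94451130, plus strand), had 109.9, 119 and 76.5 CPM in controls and 59.0, 67.0 and 70.5 CPM in AMH libraries. Its mean was 102 ± 22.2 against 65.5 ± 5.90 CPM (SD, n = 3 each), a log2 fold change of -0.63 (SE 0.21, adjusted p = 0.116 by edgeR). The groups did not overlap, but control 3 and AMH 3 lay close together. Mrpl47, of the tunnel exit region, had 25.6, 28.5 and 25.3 against 20.3, 18.3 and 20.6 CPM (-0.42, SE 0.18, adjusted p = 0.139 by edgeR), again without overlap. Of the exonic bases of Mrpl47 24.2% are shared with Actl6a and Ndufb5. Mrpl3, which lies close to the peptidyl transferase centre, had 112, 106 and 92.8 against 72.1, 72.3 and 92.9 CPM (-0.39, SE 0.17, adjusted p = 0.142 by edgeR). AMH 3 lay beside control 3 in Mrpl3, while AMH 1 and 2 were well below all controls. Mrpl18, which binds 5S ribosomal RNA in bacteria, had 99.3, 116 and 70.6 against 73.3, 72.1 and 69.7 CPM (-0.41, SE 0.21, adjusted p = 0.173 by edgeR). Mrps36, the dehydrogenase component, had 33.6, 32.5 and 21.4 against 20.1, 18.4 and 25.02 CPM (-0.46, SE 0.25, adjusted p = 0.195 by edgeR). Mrpl18 and Mrps36 were high in controls 1 and 2 and no higher in control 3 than in at least 1 AMH library. Mrpl32 and Mrps25 had log2 fold changes of -0.31 and -0.38, with overlap, and 69.8% of the exonic bases of Mrps25 are shared with Nr2c2.

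The fold change went with the number of reads. All 8 members with a mean of at least 40 CPM lay below 0 on the log2 scale, and their median was -0.27. Beside the genes already given, these include Mrps14 and Mrpl21, chosen here after their values were seen. Protein-coding genes in that range were also mostly lower: 4391 of them had at least 40 CPM, with a median of -0.42, and 3147 of those were negative. The members stood above other protein-coding genes at lower read numbers. Between 10 and 20 CPM the 30 members had a median of 1.24 and 27 of them had every AMH library above every control, against a median of 0.51 and a share of 39.6% over 2095 protein-coding genes. Between 5 and 10 CPM the medians were 1.11 over 12 members and 0.68 over 1567 genes. Between 20 and 40 CPM they were close, 0.24 over 25 members and 0.17 over 2109 genes. Across the 77 members Spearman's rho of the fold change was -0.64 with mean CPM, -0.31 with mean FPKM (reads per length and library size, as the authors deposited it) and -0.21 with gene length. Across 15249 protein-coding genes these were -0.27, -0.21 and -0.15. These points are genes that share the same 6 libraries and are not independent.

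**Figure D4:**
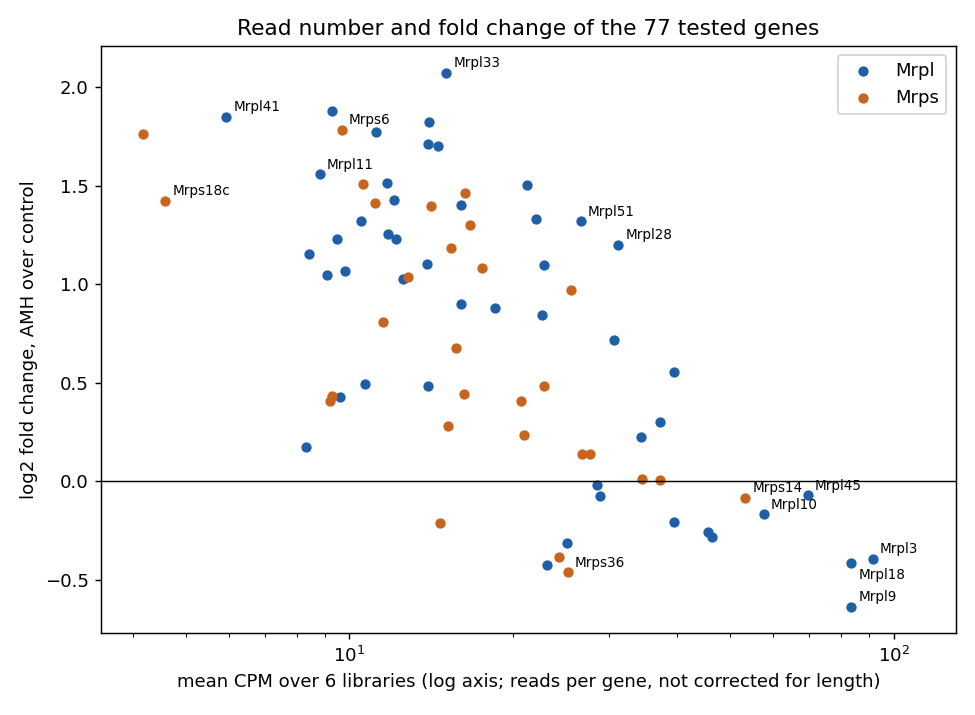
Log2 fold change of AMH over control against mean CPM over the 6 libraries on a log axis, one point per tested gene. CPM is not corrected for gene length, so the horizontal axis ranks read numbers. All points at 40 CPM or more lie below 0, and the genes between 10 and 20 CPM mostly lie above 1.

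Per length, Mrpl18 had the highest level, with a mean of 57.6 FPKM over the 6 libraries, followed by Mrpl34 at 35.96 FPKM. In the small subunit family Mrps23 (23.0 FPKM) and Mrps21 (20.1 FPKM) were highest. The lowest levels were 1.11 FPKM for Mrpl13 and 1.34 FPKM for Mrpl15 in the large family, and 1.29 FPKM for Mrps35 and 1.34 FPKM for Mrps10 in the small one. FPKM divides by the length of all annotated exons, and these 4 gene models are among the long ones, with 7936 to 8631 bases. Mrps23 had nearly equal means in both groups, 37.2 ± 4.26 and 37.4 ± 0.976 CPM (SD, n = 3 each). Mrpl34 had 16.7, 15.6 and 16.1 against 33.9, 28.9 and 24.05 CPM (0.84, SE 0.21), without overlap.

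Levels of the genes were closer to each other in each AMH library than in any control, by least between control 3 and AMH 3. Over the 77 genes the 90th percentile of FPKM exceeded the 10th by a factor of 18.7, 31.99 and 12.3 in controls 1, 2 and 3, and by one of 8.57, 8.28 and 11.01 in AMH 1, 2 and 3. Control libraries had a 10th percentile of 1.34, 0.770 and 1.61 FPKM and AMH libraries one of 3.17, 2.94 and 2.15 FPKM, while the 90th percentiles overlapped, 19.9 to 25.1 against 23.7 to 27.2 FPKM. The median was also apart, 5.01, 3.92 and 5.86 FPKM in controls 1, 2 and 3 against 11.1, 9.69 and 7.00 FPKM in AMH 1, 2 and 3. The 8 highest genes of each library held 39.0%, 44.1% and 35.2% of the summed FPKM in controls and 28.8%, 28.5% and 31.0% in AMH libraries.

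Single libraries contributed unequally. Controls 1, 2 and 3 had a median CPM over the members of 12.3, 9.48 and 12.4, and AMH 1, 2 and 3 one of 24.1, 21.7 and 18.2. Control 2 was the lowest of the controls in 50 genes, and AMH 3 the lowest of the AMH libraries in 58. Between the closest pair of libraries, 68 of 77 members (88.3%) were higher in AMH 3 than in control 3, with a median log2 ratio of 0.37, while 51.0% of all genes were, with a median of 0.01. Summed cumulus markers were 2829 CPM in that control and 2718 CPM in that AMH library, and summed oocyte markers 26706 and 26011 CPM. Other marker sums differed between them: immune markers had 19.4 and 58.9 CPM, blood markers 5.51 and 20.1 CPM, and theca and stroma markers 15.2 and 4.67 CPM. Their part in the result was not tested. This is a comparison of 2 libraries and has no replicate.

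**Figure D5:**
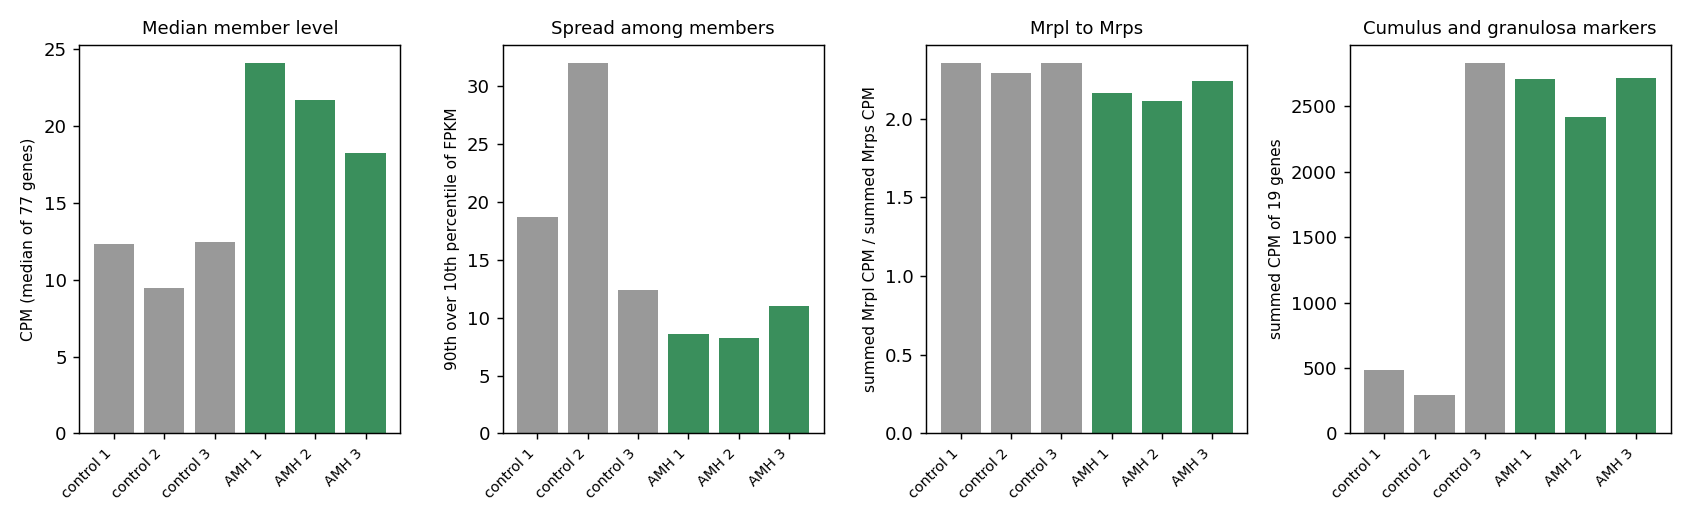
Values of each library over the 77 tested genes and the marker sum, as bars from 0 with controls in grey and AMH libraries in green. Median CPM is above 18 in all AMH libraries and below 13 in all controls, the spread of levels is lowest in AMH 1 and 2, and control 3 has a cumulus marker sum like that of the AMH libraries.

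Promoters of many of these genes carry motifs of factors known to drive genes for mitochondrial proteins. RefSeq promoter windows (GRCm38.p6, 250 bases before to 50 after the start) matched 69 of the 78 genes, in 75 windows. The ETS family motif CCGGAAG was found on either strand in 34.7% of the members' windows, against 8.86% of all 32851 windows and 11.6% of those of protein-coding genes. The YY1 motif AAGATGGCG was found in 10.7% of the members' windows, against 1.40% of all windows and 1.83% of those of protein-coding genes. The palindromic NRF1 motif was found in 4.0% (3 windows), against 0.971% and 1.33%. An ETS and a YY1 match can overlap by the letters AAG. The 100 bases before the RefSeq start of 4 genes follow, with the ETS motif in capitals, shown to give the motif in its place before members described above.
Mrpl3, chr9:105053168-105053267, plus strand: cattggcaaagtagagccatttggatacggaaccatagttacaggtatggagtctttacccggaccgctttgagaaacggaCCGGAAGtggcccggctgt
Mrpl34, chr8:71464826-71464925, plus strand: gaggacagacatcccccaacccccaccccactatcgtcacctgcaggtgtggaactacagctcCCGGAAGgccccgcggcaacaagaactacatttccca
Mrpl58, chr11:115403652-115403751, plus strand: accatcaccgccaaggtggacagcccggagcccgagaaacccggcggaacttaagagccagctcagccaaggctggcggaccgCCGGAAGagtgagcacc
Mrps18a, chr17:46110904-46111003, plus strand: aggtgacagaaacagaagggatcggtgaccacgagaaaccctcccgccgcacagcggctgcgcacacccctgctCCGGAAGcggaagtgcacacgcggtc

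Of the 25 tested genes with the ETS motif 21 had a positive log2 fold change, and every AMH library lay above every control in 16 and below in 0. By the same measures the shares were 79.2%, 64.9% and 2.60% of all tested members and 49.7%, 26.9% and 23.3% of all genes. Mrpl3 has it 19 to 13 bases before the RefSeq start. The gene model used for the counts of Mrpl3 starts earlier, at base 105053239, so the motif lies inside that model. Mrpl3 overlapped between groups, with AMH 3 beside control 3. Mrpl58 and Mrps18a have the motif 17 to 11 and 26 to 20 bases before the RefSeq start and were higher in all AMH libraries. Genes with the ETS motif had a median log2 fold change of 0.90 and the 43 with a window but without it 0.49. For YY1 the medians were 1.35 over 8 genes with the motif and 0.49 over 60 without. For NRF1 the order was the opposite, -0.31 over 3 genes with the motif and 0.84 over 65 without. A match of letters is a description and does not show that a factor binds there.

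Other genes of mitochondrial translation had values in both directions. Of all genes 49.7% were positive, and every AMH library lay above every control in 26.9% and below in 23.3%. Of 5 mitochondrial ribosomal proteins without an Mrp symbol, 3 had a positive log2 fold change. Chchd1, a small subunit protein, had 4.36, 2.60 and 4.58 against 12.98, 10.9 and 7.89 CPM (1.46, SE 0.34), and Aurkaip1, another, had 1.28 (SE 0.31), both without overlap. Among 27 assembly and RNA maturation factors 15 were positive, with a median of 0.29. In 12 of them every AMH library lay above every control and in 4 below. Malsu1, which binds the maturing large subunit, had 5.38, 3.09 and 5.64 against 13.5, 12.6 and 8.62 CPM, and Gtpbp10, a GTPase of large subunit assembly, had 52.0, 50.1 and 42.6 against 25.7, 30.8 and 33.5 CPM (-0.69, SE 0.19). These 2 factors of the same subunit had opposite signs, each without overlap. Translation factors had 8 of 13 tested positive and a median of 0.18, with 1.22 for the release factor Mtrf1l and 1.38 for Taco1, an activator of mt-Co1 translation. Mitochondrial aminoacyl-tRNA synthetases had 15 of 17 positive and a median of 1.02, with 1.48 for Cars2 and 1.49 for Ears2. Of 9 genes for transcription of mitochondrial DNA and stability of its RNA, 5 were positive, and those with every AMH library above or below every control numbered 5 and 3, against 26.9% and 23.3% of all genes. Tfam, which packages and transcribes mitochondrial DNA, had 3.51, 4.30 and 6.79 against 13.8, 12.7 and 10.3 CPM (1.33, SE 0.32), and Slirp, which stabilises mitochondrial messages, had a log2 fold change of 1.61.

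Transcripts of mitochondrial DNA itself had 13 of 14 tested positive and a median of 0.59, and 5 of the 14 were higher in every AMH library, where 26.9% of all genes were. mt-Co1, a subunit of cytochrome c oxidase, had 244, 234 and 170 against 422, 629 and 307 CPM (1.07, SE 0.30), and mt-Nd4, a subunit of complex I, had a log2 fold change of 0.71. Libraries were made from polyadenylated RNA, so the ribosomal RNAs were measured in part only: mt-Rnr2 had 222, 223 and 77.5 against 273, 368 and 105 CPM. For comparison, 83 of 86 tested cytosolic ribosomal protein genes were positive, with a median of 1.63 and 77 higher in every AMH library, among them Rps13 (1.83) and Rplp1 (1.41). All these lists hold 0 genes past edgeR's test, as among all genes, and were chosen with earlier results known.

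Some members cannot be read on their own. Mrpl53 (6, 83109040 to 83109939, plus strand) had 0 counts in all 6 libraries, which allows up to 3 counts per library, or 0.0370 to 0.0468 CPM, for counting error only. Of its exonic bases 88.0% lie in exons of other genes, and all 3 exons of its coding transcript lie wholly inside exons of Gm42688, with 2, 3 and 9 counts in controls 1, 2 and 3 against 27, 40 and 22 counts in AMH 1, 2 and 3. Exons of 33 members share bases with another gene, and in Mrpl53, Mrps25 and Mrps34 the shared part is most of the gene. Mrpl46 and Mrps11, head-to-head neighbours on chromosome 7 whose gene models overlap, had log2 fold changes of 1.23 and 1.51, named here after their values were seen. The table also holds 5 pseudogene rows with Mrp symbols, with 4 to 287 counts over all libraries, which were left out.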

How the data were processed

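Oocyte RNA was prepared with a SMART v4 kit and selected on poly-T beads, per the labels' protocols. The authors deposited whole-number counts per gene and FPKM values. Per the submitters' processing notes, the genome builds were GRCm38 and mm10 and the tools were featureCounts 1.5.0-p3, HISAT2 2.0.5 and DESeq2 1.20.0. What each tool did, with which filters and strand mode, is not given in the sources used here. Reads of overlapping genes may therefore be shared or lost. Groups came from the sample titles.

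Counts were tested with edgeR 4.0.16 (R 4.3.3; TMM, filterByExpr, robust quasi-likelihood fit on group, Benjamini-Hochberg over 18868 genes), after a check on simulated data. FPKM was tested as log2(FPKM + 1) with limma 3.58.1. DESeq2 1.42.0, limma-voom, other scalings and filters, a replicate block, a cumulus marker covariate and leaving out libraries were alternatives. Named were, per family, the 5 genes of smallest p with at least 5 CPM, the 2 highest and 2 lowest by FPKM, the 8 lowest fold changes, 11 set genes, any untested gene, and 2 per other list. The ranges of CPM were set after the values were seen. Members and lists were chosen with earlier results of these data known.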

Additional observations from a re-analysis of the deposited data

How the results depend on the processing

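Members past the test numbered 0 higher and 0 lower in the edgeR fit on all libraries. Leaving out 1 library gave 0 to 43 higher and 0 to 2 lower. Without control 3 there were 43 and 2, where 26.8% and 11.2% of all genes were called. Without AMH 3 there were 9 and 0, against 1.45% and 6.73%. DESeq2 called 44 higher and 0 lower (16.3% and 7.78% of all genes), and limma-voom with sample weights 52 and 11 (39% and 35.7%). Leaving out control 3 and AMH 3 together (chosen after seeing the data) gave 44 higher and 5 lower (29.4% and 21.6% of all genes).

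At an unadjusted p under 0.05, 44 members were higher and 1 lower. The higher count was 24 with the cumulus covariate and 30 to 45 with 1 library left out. Shares of all genes at this threshold are not given for the alternatives. The lower count was 5 with upper-quartile scaling, 12 with voom weights, 2 with DESeq2, 2 with limma on FPKM, 8 without control 3 and AMH 3, and 0 to 5 with 1 library left out. It was 0 with library size alone, oocyte marker scaling, the cumulus covariate and the replicate block. The replicate block gave 40 higher, a median of 0.89 and 0 members past the test. After removal of each group's mean, same-numbered libraries had correlations of 0.06, -0.10 and -0.25. With 3 libraries per group these values cannot decide whether the numbers pair the libraries. Control 3 and AMH 3 were the closest pair without that removal.

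The median of 0.88 was 1.16 with library size alone, 1.64 with oocyte marker scaling, 1.205 without control 3 and AMH 3, and 0.74 to 1.05 with 1 library left out. The 2 members lower in every AMH library became 5 with upper-quartile scaling, 0 with library size alone and 0 with oocyte marker scaling. The count was 14 without control 3 and AMH 3, and 3 to 12 with 1 library left out (12 without control 3, 9 without AMH 3). Separation of the groups is easier to reach with fewer libraries, so those counts cannot be compared with the 2 from all libraries. Shares of all genes in those settings are not given here.

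Some single genes changed sign. With oocyte marker scaling Mrpl18 had 0.38, Mrpl9 0.14, Mrps36 0.28, Mrpl47 0.33, Mrpl3 0.34, Mrps25 0.37, Mrpl32 0.49, Mrpl44 0.46, Mrpl10 0.55 and Mrpl45 0.66. With the cumulus covariate Mrpl18 had 0.0057 and Mrpl32 0.16, and with library size alone Mrpl10 had 0.10 and Mrpl45 0.20. Mrps23 had -0.23 with upper-quartile scaling, -0.030 with voom weights, -0.080 without control 3 and AMH 3, and -0.085 (without control 3) to 0.076 (without control 2) with 1 library left out, with -0.046 without AMH 3. The cause was not tested. Of 626 values of named genes under the alternatives, 498 kept their direction and side of the threshold, 109 passed it and 19 changed sign. Overlap could not be computed for voom, the block or the covariate.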
